A study of Mus musculus with 36 samples.

Results

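The genes described here are 39 mouse genes known as direct or close targets of the transcription factor p53, p53 itself included, but not Cdkn1a, which encodes p21. They were named from a list of symbols, each symbol matched 1 gene identifier, and they are 39 of 53715 genes counted and 39 of 15637 genes with enough reads to be tested. Some were chosen by their measured difference between streptozotocin (STZ) and vehicle, having been seen among the genes with the largest STZ effects in these kidneys, so the comparisons of STZ with vehicle are a description: their intervals and their 1 count against the threshold are printed beside the values of all genes and support nothing. Levels were measured by RNA sequencing of whole kidneys from 36 mice, 9 in each of 4 groups. PBS-cKOt and STZ-cKOt mice carried Bmal1 lox/lox, Pax8-rtTA and LC1, which together delete Bmal1 (gene symbol Arntl, a core transcription factor of the circadian clock) in cells of the renal tubule when doxycycline is given. PBS-control and STZ-control mice were Bmal1lox/lox littermates without these transgenes. All 4 groups drank doxycycline at 2 mg/ml for 2 weeks from 8 weeks of age. A week later STZ mice received 50 mg/kg of STZ on each of 5 days and PBS mice received vehicle, and kidneys were collected at zeitgeber time 9, that is 9 h after lights on, when 8 weeks had passed since the injections ended. STZ is a DNA-alkylating glucose analogue that destroys insulin-producing cells. Diabetes and a direct action of STZ on the kidney cannot be told apart in this design, and Pax8 drives deletion in tubule cells while whole kidney was measured.

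The protein p53 is held low in unstressed cells by the ubiquitin ligase Mdm2 and accumulates after DNA damage and other stress, mostly through protein stability rather than mRNA. It then binds paired half-sites near its targets, whose products halt the cell cycle, trigger or restrain cell death, repair DNA, adjust metabolism and, as with Mdm2, shut p53 down again. In the kidney this response is best known in tubule cells after toxic or ischaemic injury.

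Levels are counts per M assigned reads (CPM), with library sizes scaled by the trimmed mean of M values (TMM), and 3 values in a row are the lowest, the median and the highest of the 9 kidneys in a group. Differences are log2 fold changes from 1 model of all 36 libraries, and a gene was called where its p adjusted over all tested genes was under 0.05. In STZ-control against PBS-control kidneys 25 of the 39 genes were called higher and 0 lower, where 6.34% of all tested genes were called higher and 5.93% lower. In STZ-cKOt against PBS-cKOt 20 were called higher and 1 lower, where 6% of all tested genes were called higher and 5.63% lower. These counts rest in part on the choice of the genes and nothing is read from them. The median log2 difference of the 39 was 0.34 in control and 0.35 in cKOt mice, against 0.00 over all tested genes in both. In 13 of the 39 genes every STZ-control kidney was above every PBS-control kidney (0.742% of all tested genes), and in 13 every STZ-cKOt kidney was above every PBS-cKOt kidney (0.454%). In 0 of the 39 was it the other way round, against 0.48% and 0.422% of all tested genes. Trp53cor1 passed the filter on low counts only through STZ kidneys, which fixes a difference for it.

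A total of 28 of the 39 genes had a promoter window in the RefSeq table (build GRCm38.p6), from 250 bases before to 50 bases after the annotated start. These windows were searched for the p53 response element, 2 half-sites of 10 bases with no spacer, allowing up to 3 mismatches but none at the C and the G that frame each core. The element is its own reverse complement, so both strands were read at once. A match was found in 8 of the 28 genes (28.6%), against 441 of 27025 genes with a window (1.63%). With up to 2 mismatches 4 of 28 genes (14.3%) and 0.392% of all genes had one. Lists of p53 targets were compiled in part from such sites, so the share is a description of the list. The matches of the 8 genes are printed, and capitals mark the 4-base core of each half-site.
Ccng1 (chr11:40755462-40755481, minus strand): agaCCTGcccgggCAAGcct
Gtse1 (chr15:85859945-85859964, plus strand): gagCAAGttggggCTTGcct
Rps27l (chr9:66946296-66946315, plus strand): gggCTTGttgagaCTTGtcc
Ckap2 (chr8:22186003-22186022, minus strand): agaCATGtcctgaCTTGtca
Trp53 (chr11:69580284-69580303, plus strand): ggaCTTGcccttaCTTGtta
Aen (chr7:78895937-78895956, plus strand): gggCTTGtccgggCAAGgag
Bbc3 (chr7:16309486-16309505, plus strand): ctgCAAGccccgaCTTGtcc
Sesn1 (chr10:41887266-41887285, plus strand): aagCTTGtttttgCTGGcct
Ccng1, Gtse1 and Rps27l matched with 1 mismatch, Ckap2 with 2 and the other 4 with 3. In GENCODE M21 the sites of Ccng1, Ckap2 and Trp53 lie upstream of the gene, those of Gtse1 and Aen in a noncoding part of an exon, and those of Bbc3, Rps27l and Sesn1 in an intron. For 2 of them, the abundant Ccng1 and the mitotic gene Ckap2, the stretch just upstream of the annotated gene follows, 225 and 250 bases, with the 20-base match in capitals.
Ccng1 (chr11:40755312-40755536, minus strand): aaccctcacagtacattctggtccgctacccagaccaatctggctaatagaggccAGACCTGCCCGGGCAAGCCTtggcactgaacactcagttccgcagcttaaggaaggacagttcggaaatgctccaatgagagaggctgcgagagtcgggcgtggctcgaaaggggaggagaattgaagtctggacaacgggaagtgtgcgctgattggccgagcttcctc
Ckap2 (chr8:22185820-22186069, minus strand): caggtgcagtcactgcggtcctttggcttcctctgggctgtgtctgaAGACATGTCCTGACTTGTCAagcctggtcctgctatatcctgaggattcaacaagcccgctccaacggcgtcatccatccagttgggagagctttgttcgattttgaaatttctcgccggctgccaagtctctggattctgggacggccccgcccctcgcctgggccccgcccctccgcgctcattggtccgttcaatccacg
A match of letters does not show that p53 is bound there.

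The log2 difference of STZ from PBS was above 0 in all 10 cell cycle and growth genes in control mice (median 1.10) and in 9 of 10 in cKOt mice (median 1.03). Trp53cor1, a long noncoding RNA also called lincRNA-p21, had the largest difference and the lowest level. It read 0, 0.0974 and 0.196 CPM after PBS and 0.284, 0.68 and 1.04 after STZ in control mice, and 0, 0.0916 and 0.217 after PBS and 0.468, 0.924 and 1.41 after STZ in cKOt mice. PBS libraries held 0 to 5 reads of it, with 1 library at 0 in each PBS group, while STZ libraries held 5 to 27, and the STZ and PBS kidneys did not overlap in either genotype. The STZ difference was 2.77 (SE 0.34) in control and 3.03 (SE 0.32) in cKOt mice, on the log2 scale. Psrc1, which encodes a microtubule-binding spindle protein, read 0.206, 0.587 and 1.07 CPM after PBS and 2.67, 3.72 and 5.18 after STZ in control mice, and 0.492, 0.727 and 1.17 after PBS and 3.17, 3.82 and 5.33 after STZ in cKOt mice. Its STZ and PBS kidneys did not overlap in either genotype, and the log2 difference was 2.73 (SE 0.19) in control and 2.5 (SE 0.18) in cKOt mice. Inka2, an inhibitor of the kinase PAK4, read 0.47, 0.947 and 1.31 CPM after PBS and 3.13, 3.36 and 4.38 after STZ in control mice, and 0.541, 0.953 and 1.15 after PBS and 3.48, 4.18 and 4.67 after STZ in cKOt mice. All 18 STZ kidneys lay above all 18 PBS kidneys, with a log2 difference of 2.00 (SE 0.14) in control and 2.18 (SE 0.14) in cKOt mice.

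Gtse1 and Ckap2 encode microtubule-associated proteins of dividing cells. Gtse1 read 0.47, 0.842 and 1.2 CPM after PBS and 1.82, 2.51 and 3.19 after STZ in control mice, and 0.473, 0.617 and 0.953 after PBS and 1.58, 1.94 and 3.02 after STZ in cKOt mice, without overlap between STZ and PBS in either genotype, and its log2 difference was 1.59 (SE 0.16) in control and 1.61 (SE 0.17) in cKOt mice. Ckap2 read 0.646, 1.14 and 1.51 CPM after PBS and 1.82, 2.58 and 4.17 after STZ in control mice, and 0.704, 1.08 and 1.92 after PBS and 1.67, 1.98 and 3.42 after STZ in cKOt mice. Its control groups did not overlap and its cKOt groups did, with a log2 difference of 1.38 (SE 0.19) in control and 0.98 (SE 0.19) in cKOt mice. A list of 12 markers of proliferating cells moved in the same direction. With STZ 12 of 12 were called higher in control mice (6.34% of all tested genes) and 11 of 12 in cKOt mice (6%). Their summed level in control mice ran from 18 to 32.1 CPM after PBS and 37.1 to 65.5 after STZ, and in cKOt mice from 18.3 to 25.5 after PBS and 28.7 to 53.8 after STZ, and none was at 0 in every kidney of a group. In whole kidney, more cells of a type and more RNA per cell cannot be told apart. Within groups, that is after group means of log2 CPM were removed, Ckap2 followed the mean of these 12 markers over the 36 kidneys with Pearson's r = 0.66 and Spearman's rho = 0.66 (permutation p = 2e-05 and 3e-05, adjusted over all tested genes 0.0195 and 0.0188). Leaving out the 2 kidneys farthest from the median gave r = 0.66. It was the 1 gene of the 39 called, where 0.256% of tested genes were called by Pearson's r and 0.371% by Spearman's rho. Without 5 libraries (PBS-cKOt 1 and 3 and STZ-control 2, 7 and 8), r was 0.68 and Ckap2 was no longer called. For Gtse1 r was 0.32 and for Psrc1 0.05, with adjusted p above the threshold. The part of dividing cells in the STZ differences of these genes was not tested beyond these values.

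Ccng1, which encodes cyclin G1 and acts in the Mdm2 feedback loop, was the most abundant of the 10, at 264, 309.9 and 396 CPM after PBS and 408, 541 and 660.1 after STZ in control mice, and 235, 274 and 357 after PBS and 493, 605 and 714 after STZ in cKOt mice. The STZ and PBS kidneys did not overlap in either genotype, and the log2 difference was 0.78 (SE 0.091) in control and 1.08 (SE 0.092) in cKOt mice. Plk2, a polo-like kinase, read 12.4, 15.1 and 17.8 CPM after PBS and 20.6, 25.2 and 33.6 after STZ in control mice, and 8.29, 10.8 and 12 after PBS and 14.9, 19.6 and 26.8 after STZ in cKOt mice. Again no STZ kidney overlapped the PBS kidneys of its genotype, with a log2 difference of 0.81 (SE 0.10) in control and 0.93 (SE 0.10) in cKOt mice. Btg2, an antiproliferative cofactor, read 14.6, 18.2 and 28.2 CPM after PBS and 19, 30.0 and 54.6 after STZ in control mice, and 16.2, 23.6 and 48.1 after PBS and 20.7, 32.2 and 43.7 after STZ in cKOt mice. Its groups overlapped in both genotypes, and the log2 difference was 0.82 (SE 0.18) in control and 0.31 (SE 0.18) in cKOt mice. Zmat3, an RNA-binding regulator of splicing, had no overlap between STZ and PBS in either genotype and a log2 difference of 0.71 (SE 0.078) in control and 0.83 (SE 0.078) in cKOt mice. Ptp4a3, a tyrosine phosphatase, had intervals that included 0 in both, at 0.17 (95% interval −0.03 to 0.37) in control and −0.02 (95% interval −0.22 to 0.18) in cKOt mice.

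**Figure D1:**
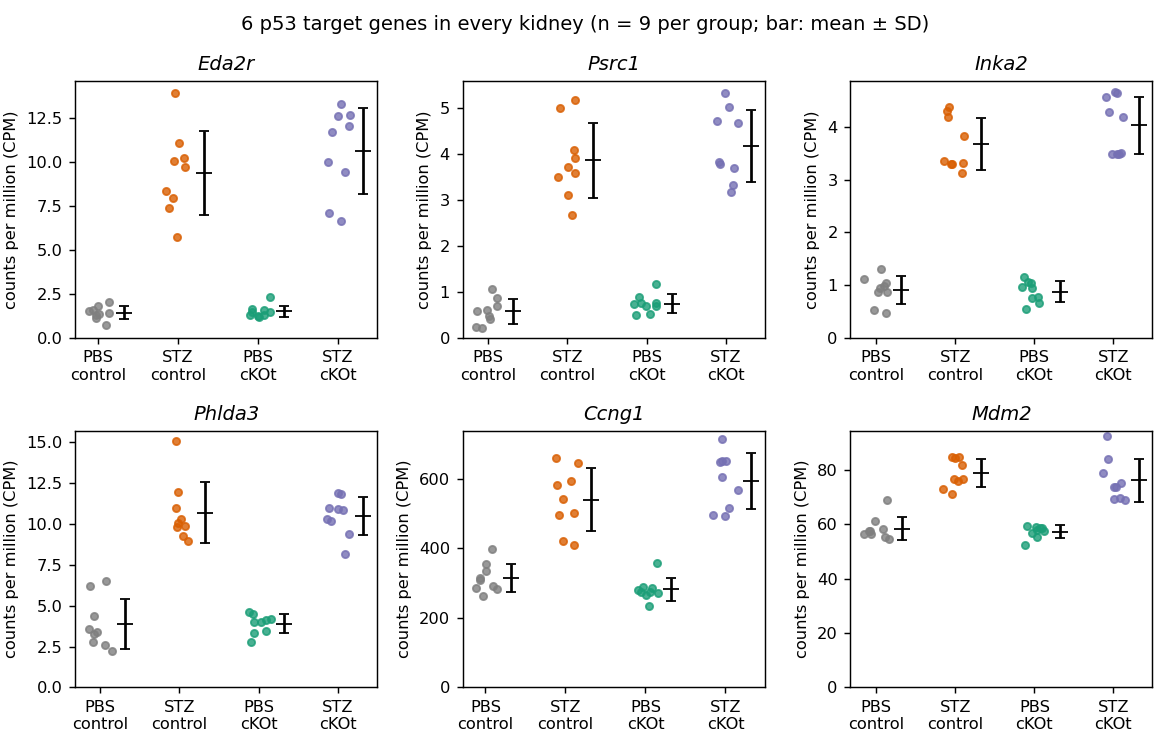
Level of 6 of the genes in each of the 36 kidneys, in counts per M reads on a linear axis from 0, with 1 point per kidney and the mean ± SD of the 9 kidneys of a group beside them. In all 6 genes every STZ kidney lies above every PBS kidney of the same genotype.

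Of the 12 genes of cell death and survival, 11 had an STZ difference above 0 in control mice (median log2 0.44) and 10 in cKOt mice (median 0.44). Eda2r, a death-domain-free receptor of the tumour necrosis factor family that binds ectodysplasin A2, read 0.724, 1.43 and 2 CPM after PBS and 5.71, 9.69 and 13.9 after STZ in control mice, and 1.18, 1.46 and 2.3 after PBS and 6.66, 11.7 and 13.3 after STZ in cKOt mice. The lowest STZ kidney was above the highest PBS kidney in both genotypes, and the log2 difference was 2.71 (SE 0.17) in control and 2.82 (SE 0.17) in cKOt mice. Phlda3, which restrains the survival kinase Akt, read 2.23, 3.42 and 6.54 CPM after PBS and 8.98, 10.1 and 15.1 after STZ in control mice, and 2.81, 4.03 and 4.61 after PBS and 8.17, 10.9 and 11.9 after STZ in cKOt mice. It too had no overlap in either genotype, with a log2 difference of 1.45 (SE 0.14) in control and 1.43 (SE 0.14) in cKOt mice. Bbc3 encodes Puma, a BH3-only activator of mitochondrial cell death, and read 0.705, 1.2 and 1.47 CPM after PBS and 1.56, 2.06 and 2.87 after STZ in control mice, and 0.455, 1.37 and 1.76 after PBS and 1.41, 2.56 and 3.89 after STZ in cKOt mice. Its control groups did not overlap, its cKOt groups did, and the log2 difference was 0.93 (SE 0.20) in control and 1.05 (SE 0.19) in cKOt mice.

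The rest of the death genes moved less. Aen, an apoptosis-enhancing nuclease, did not overlap in either genotype (0.66 in control and 0.68 in cKOt mice, log2). Tnfrsf10b, a death receptor, overlapped in control mice only, at 0.68 and 0.94. Bax, the pore-forming effector of mitochondrial cell death, differed by 0.58 and 0.21, in control and cKOt mice in turn. The adaptor Apaf1 differed by 0.30 and 0.39 and the death receptor Fas by 0.26 and 0.19. Pmaip1, which encodes the BH3-only protein Noxa, stood at 0.25 (95% interval −0.10 to 0.59) in control and 0.48 (95% interval 0.13 to 0.84) in cKOt mice. Ei24, a protein of the endoplasmic reticulum, stayed within a narrow interval, at 0.03 (95% interval −0.06 to 0.13) and 0.03 (95% interval −0.06 to 0.12). Perp, a membrane protein of desmosomes, stood below 0, at −0.13 (95% interval −0.25 to −0.01) and −0.21 (95% interval −0.32 to −0.09). Pidd1 stood at 0.24 (95% interval 0.01 to 0.46) in control and −0.23 (95% interval −0.45 to −0.01) in cKOt mice.

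The 5 genes of p53 and its feedback showed small differences in Trp53 and larger ones in Mdm2 and Trp53inp1. Trp53, which encodes p53, read 23.9, 27.2 and 30.1 CPM after PBS and 24.9, 29.7 and 33.3 after STZ in control mice, and 26.5, 28.9 and 31.1 after PBS and 22.4, 28.8 and 32.6 after STZ in cKOt mice. All 4 groups overlapped, and the STZ difference was 0.13 (95% interval 0.01 to 0.26) in control and −0.05 (95% interval −0.17 to 0.08) in cKOt mice. Mdm2 read 54.5, 57.6 and 68.8 CPM after PBS and 71.2, 76.6 and 84.8 after STZ in control mice, and 52.3, 58.1 and 59.3 after PBS and 68.8, 73.7 and 92.4 after STZ in cKOt mice. Its STZ and PBS kidneys did not overlap in either genotype, and the log2 difference was 0.43 (SE 0.053) in control and 0.41 (SE 0.053) in cKOt mice. Trp53inp1, a stress protein that promotes p53 activity, differed by 0.55 in control and 1.04 in cKOt mice, with overlap in control mice only. Rps27l, a ribosomal protein paralog, differed by 0.34 and 0.19, and Ppm1d, the phosphatase Wip1, by 0.08 and 0.17. Rps27l has a near copy, Rps27, so its reads may be split or left out. The counting options for strand are not given in the sources used here, so reads of Trp53 and of Wrap53, which overlaps it on the opposite strand, cannot be told apart.

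DNA repair genes had small STZ differences, between −0.28 for Rrm2b and 0.25 for Polk in control mice and between −0.01 for Rrm2b and 0.24 for Polk in cKOt mice. Polk is a translesion polymerase, and Ercc5, the excision repair nuclease XPG, stood at 0.17 and 0.15. All 7 stress and metabolism genes had a difference above 0 in both genotypes, with a median of 0.32 in control and 0.21 in cKOt mice. Gdf15, a secreted stress cytokine, read 2.06, 5.24 and 6.84 CPM after PBS and 6.83, 11.6 and 19.8 after STZ in control mice, and 2.65, 5.76 and 10.6 after PBS and 6.29, 10.3 and 13.4 after STZ in cKOt mice. Its groups overlapped in both genotypes, narrowly in control mice, and the log2 difference was 1.37 (SE 0.21) in control and 0.64 (SE 0.21) in cKOt mice. Epha2, a receptor tyrosine kinase, Fdxr, a mitochondrial ferredoxin reductase, Ak1, an adenylate kinase, and the noncoding RNA Pvt1 differed by 0.43, 0.32, 0.23 and 0.23 in control mice. Ordered by size, the 12 largest differences in control mice end with Ccng1 at 0.78, and the next, Zmat3, stood at 0.71.

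**Figure D2:**
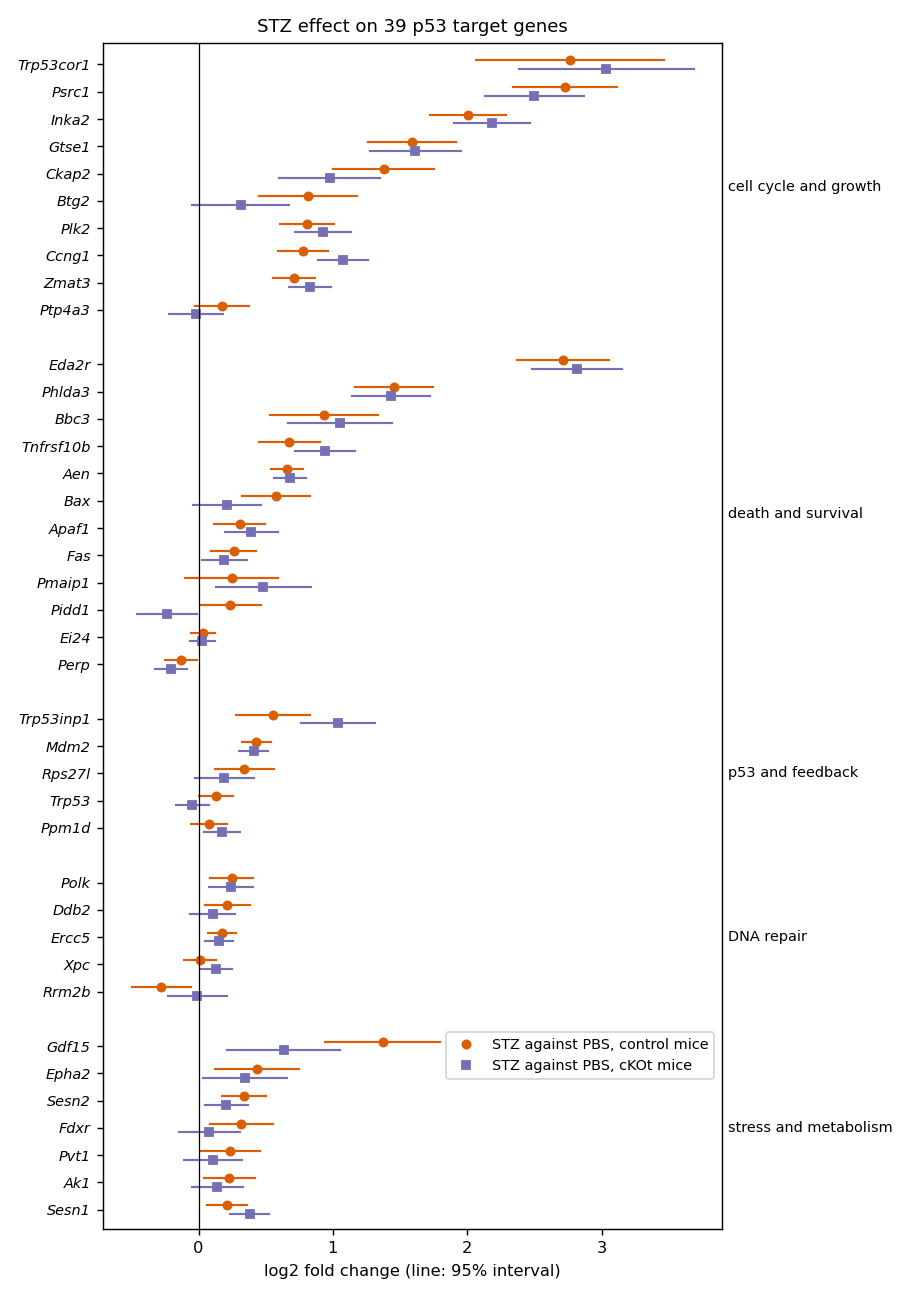
Log2 fold change of STZ against PBS in control (circles) and cKOt mice (squares) for the 39 genes by role, with 95% intervals from the model of 36 libraries. Trp53cor1, Psrc1, Inka2 and Eda2r stand at 2 or more on the log2 scale in both genotypes, and Perp and Rrm2b lie below 0 in both.

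Per length, the order of the genes was led by the same pair in every group. Mean CPM per kb of exon in PBS-control kidneys was 107 for Rps27l and 89.6 for Ccng1, then 37.5 for Perp and 31.5 for Ei24, and it was 0.0261 for Trp53cor1, the lowest of the 39. In STZ-control kidneys Ccng1 was at 153 and Rps27l at 136 CPM per kb. Phlda3 moved from place 26 to place 14 of 39 and Gdf15 from 25 to 15 between these groups, while Trp53 held place 11 in all 4. Eda2r, Inka2, Psrc1 and Trp53cor1, with the largest STZ differences, held places 36 to 39 in PBS-control. In STZ-control they held places 28, 37, 29 and 39 in turn. The PBS-control level is part of the STZ difference, so nothing is read from this order.

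Whether the STZ effect differed by genotype was tested as the interaction, the STZ effect in cKOt minus that in control mice. None of the 39 genes was called (0 of 39, edgeR quasi-likelihood test), where 0.0448% of tested genes were, and 6 had an unadjusted p under 0.05. DESeq2 and limma voom also called 0. The 6 were Pidd1, at −0.47 (95% interval −0.79 to −0.15), Trp53inp1 at 0.49 (95% interval 0.10 to 0.87), Gdf15 at −0.73 (95% interval −1.33 to −0.13), Ccng1 at 0.30 (95% interval 0.04 to 0.56), Bax at −0.36 (95% interval −0.72 to −0.00) and Trp53 at −0.18 (95% interval −0.35 to −0.00), with adjusted p between 0.333 and 0.400. For the genes with the largest STZ effects the interaction was 0.11 (95% interval −0.38 to 0.59) for Eda2r, −0.23 (95% interval −0.78 to 0.32) for Psrc1, 0.18 (95% interval −0.23 to 0.59) for Inka2 and 0.27 (95% interval −0.88 to 1.42) for Trp53cor1. Cdkn1a itself, not one of the 39, had an interaction of −1.37 (95% interval −1.71 to −1.02) (adjusted p = 1.93e-05). The interaction contains both STZ contrasts, and some of the genes were chosen by their STZ effects.

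Cdkn1a read 2.86, 4 and 5.55 CPM after PBS and 30.0, 44.3 and 52.2 after STZ in control mice, and 17.1, 22.2 and 28.8 after PBS and 70.6, 84.2 and 112 after STZ in cKOt mice, and its knockout difference was 2.46 (SE 0.13) in PBS and 1.10 (SE 0.11) in STZ mice. In PBS-cKOt against PBS-control 8 of 39 (20.5%) were called, 5 higher and 3 lower, where 23.4% of all tested genes were called, 10.9% higher and 12.5% lower. In STZ-cKOt against STZ-control 5 of 39 (12.8%) were called, 3 higher and 2 lower, where 19.6% of tested genes were, 9.52% higher and 10.1% lower. Neither share stands above the background, and the median of the 39 was 0.04 in PBS and −0.02 in STZ mice. These contrasts were not used to choose the genes but share libraries with the STZ contrasts, by which some genes were chosen.

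Plk2 was lower in cKOt kidneys under both treatments. As its values given above show, all 9 PBS-cKOt kidneys lay below all 9 PBS-control kidneys, while the STZ groups overlapped. It fell by 0.51 (log2) after PBS (SE 0.10, adjusted p = 0.000272) and by 0.39 after STZ (SE 0.099, adjusted p = 0.00369). No other of the 39 genes had genotype groups without overlap, where among all tested genes 2.4% were higher and 2.72% lower without overlap after PBS, and 1.86% and 1.64% after STZ. Pmaip1 read 8.78, 18 and 23.2 CPM after PBS and 10.9, 19.4 and 28.7 after STZ in control mice, and 8.23, 9.55 and 17.4 after PBS and 10.5, 15 and 22 after STZ in cKOt mice. It fell by 0.57 in PBS mice (SE 0.18, adjusted p = 0.0162), with overlap, and in STZ mice the difference was −0.33 (95% interval −0.68 to 0.02).

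Sesn2, a stress-induced inhibitor of mTORC1 signalling, read 32, 38.9 and 47.7 CPM after PBS and 43, 47.4 and 62.7 after STZ in control mice, and 47.5, 51.2 and 54.6 after PBS and 48.5, 58.6 and 74.3 after STZ in cKOt mice. It rose by 0.36 (SE 0.08) in PBS mice (adjusted p = 0.000933), where the highest control kidney and the lowest cKOt kidney met, and by 0.23 (SE 0.08) in STZ mice (adjusted p = 0.0411). Its relative Sesn1 read 13.9, 17.6 and 19.1 CPM after PBS and 15.7, 19.9 and 24.2 after STZ in control mice, and 16.5, 17.7 and 20.2 after PBS and 18.6, 23.5 and 27.8 after STZ in cKOt mice. It rose by 0.25 (SE 0.072) in STZ mice (adjusted p = 0.00982), and in PBS mice the difference was 0.09 (95% interval −0.06 to 0.24). Pidd1, the scaffold of the complex that activates caspase-2, read 3.32, 3.76 and 5.15 CPM after PBS and 3.62, 4.38 and 5.44 after STZ in control mice, and 4.35, 5.36 and 6.97 after PBS and 3.74, 4.55 and 6.22 after STZ in cKOt mice. It rose by 0.50 (SE 0.11) in PBS mice (adjusted p = 0.000774) and differed by 0.03 (95% interval −0.19 to 0.25) in STZ mice. Pvt1 read 2.79, 3.82 and 4.39 CPM after PBS and 4.02, 4.23 and 5.17 after STZ in control mice, and 3.71, 4.72 and 6.55 after PBS and 3.54, 5.3 and 6.83 after STZ in cKOt mice, rose by 0.40 (SE 0.11) in PBS mice (adjusted p = 0.00606) and differed by 0.27 (95% interval 0.06 to 0.49) in STZ mice. The genotype groups of all 4 genes overlapped.

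Of the 5 repair genes 3 were called in PBS mice and 1 in STZ mice, where 23.4% and 19.6% of all tested genes were called. With 5 genes nothing is read from these counts. Ddb2, which recognises ultraviolet-type lesions, read 8.76, 9.31 and 12.6 CPM after PBS and 9.46, 10.6 and 14.1 after STZ in control mice, and 10.1, 12 and 14 after PBS and 11.2, 12.5 and 14.8 after STZ in cKOt mice. It rose by 0.30 (SE 0.084) in PBS mice (adjusted p = 0.00692), with overlap, and in STZ mice the difference was 0.19 (95% interval 0.02 to 0.36). Xpc, its partner in lesion recognition, read 43.6, 49.4 and 50.3 CPM after PBS and 39.1, 49.5 and 53.8 after STZ in control mice, and 45.3, 52.1 and 57.3 after PBS and 49.4, 57.3 and 60.7 after STZ in cKOt mice. It rose by 0.20 (SE 0.059) in STZ mice (adjusted p = 0.0103) and differed by 0.08 (95% interval −0.04 to 0.20) in PBS mice. Ercc5 read 21.6, 23 and 25.4 CPM after PBS and 23.7, 26 and 28.7 after STZ in control mice, and 21.9, 25.4 and 27.6 after PBS and 25.3, 28.4 and 31.8 after STZ in cKOt mice and rose by 0.14 (SE 0.051) in PBS mice (adjusted p = 0.046). Rrm2b, a p53-inducible subunit of ribonucleotide reductase, read 42.6, 54.7 and 68.4 CPM after PBS and 27.1, 49.5 and 51.2 after STZ in control mice, and 27.7, 45.6 and 54.2 after PBS and 38.3, 44.4 and 57.5 after STZ in cKOt mice and fell by 0.30 in PBS mice (SE 0.11, adjusted p = 0.043). Perp read 64.6, 73.2 and 82.7 CPM after PBS and 58.2, 68.2 and 78.1 after STZ in control mice, and 59.5, 67.3 and 76.7 after PBS and 50.5, 59 and 62.1 after STZ in cKOt mice and fell by 0.20 in STZ mice (SE 0.059, adjusted p = 0.0117). The groups overlapped for each of these genes.

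**Figure D3:**
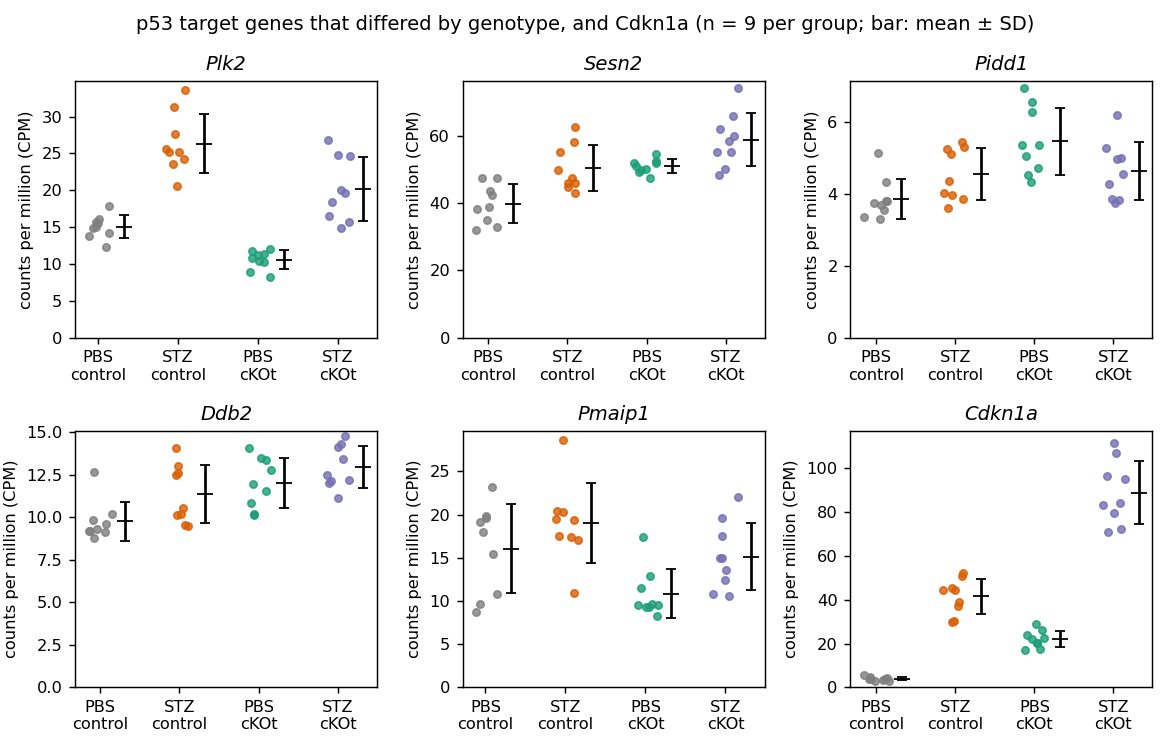
Level of 5 of the genes called by genotype in PBS mice, and of Cdkn1a, in each of the 36 kidneys, in counts per M reads on a linear axis from 0, with the mean ± SD of 9 kidneys. Plk2 in PBS-cKOt kidneys, at most 12 CPM, lies below every PBS-control kidney, and the Cdkn1a groups by genotype do not overlap under either treatment.

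Some of these calls rest on a few libraries. The library labelled STZ-control 2 read 13.4 CPM of Arntl, where the other 17 control libraries read 1.09 to 2.64 and the 18 cKOt libraries 12.9 to 17.4, and 1.95 CPM of Ciart, a clock output gene, where the other controls read 12.9 to 32.5 and cKOt 1.10 to 3.63. Gene-level Arntl counts were higher in cKOt kidneys and can include exons outside a deletion, so they are no direct check of it. Both levels of the library labelled STZ-control 2 lay in the cKOt range, so its genotype label is in doubt. The library stays in the group of its label here, in the STZ as well as the knockout comparisons. It lay within the range of the other 8 STZ-control libraries for 32 of the 39 genes, below it for Inka2 and Epha2 and above it for Aen, Ccng1, Rrm2b, Pvt1 and Pidd1. Without it the knockout effect on Sesn2 in STZ mice was 0.20 (adjusted p = 0.0772) and that on Pvt1 was called, at 0.31 (adjusted p = 0.043). A further 4 libraries, PBS-cKOt 1 and 3 with STZ-control 7 and 8, stood apart in earlier work on these data. Without these 4, Ercc5 (0.13, adjusted p = 0.06) and Rrm2b (−0.20, adjusted p = 0.0711) were no longer called in PBS mice, while Perp and Fdxr were. In STZ mice Sesn1 (0.19, adjusted p = 0.0516), Sesn2 (0.22, adjusted p = 0.0657) and Perp (−0.15, adjusted p = 0.0596) were no longer called. Plk2 and Xpc were still called, joined by Ckap2, Ddb2, Ercc5 and Fdxr.

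The genes with the largest STZ differences gave wide to moderate intervals for the knockout. In PBS mice the difference was 0.07 (95% interval −0.33 to 0.46) for Eda2r, 0.35 (95% interval −0.11 to 0.81) for Psrc1 and −0.04 (95% interval −0.37 to 0.28) for Inka2. Phlda3 stood at −0.00 (95% interval −0.31 to 0.30), Ccng1 at −0.16 (95% interval −0.35 to 0.02) and Mdm2 at −0.03 (95% interval −0.14 to 0.08). For Trp53 it was 0.10 (95% interval −0.02 to 0.23) in PBS and −0.07 (95% interval −0.20 to 0.05) in STZ mice. Each of these 7 upper bounds in PBS mice is under the lowest bound for Cdkn1a, whose interval was 2.46 (95% interval 2.20 to 2.73). Trp53cor1 lies on chromosome 17 at 29057430 to 29079179 on the minus strand (GRCm38), 11.8 kb from Cdkn1a, which lies at 29090976 to 29100727 on the plus strand. Its knockout difference was 0.13 (95% interval −0.83 to 1.08) in PBS and 0.39 (95% interval −0.09 to 0.87) in STZ mice, at 0 to 27 reads per library.

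**Figure D4:**
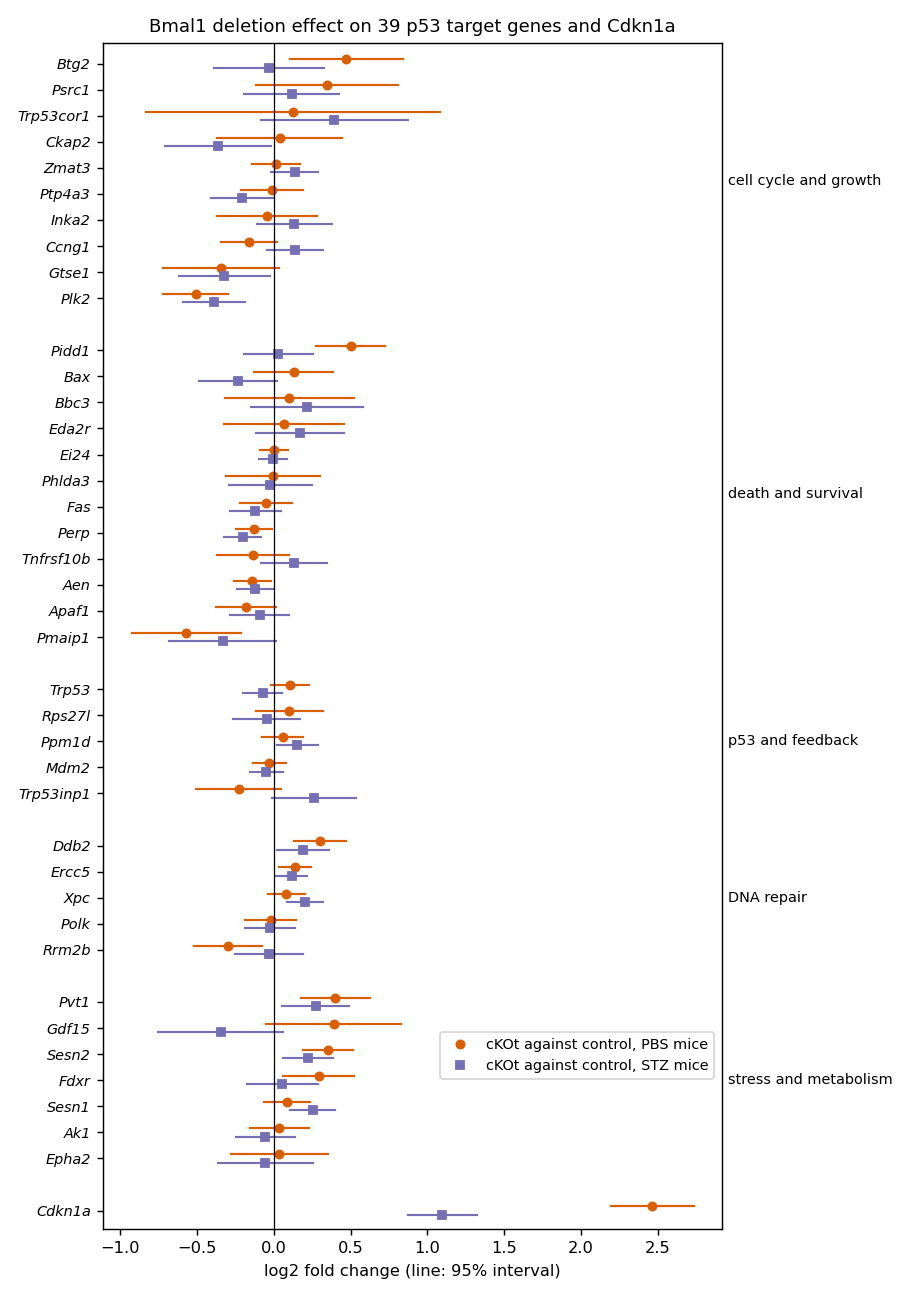
Log2 fold change of cKOt against control in PBS (circles) and STZ mice (squares) for the 39 genes by role and, at the bottom, for Cdkn1a, with 95% intervals. Most intervals of the 39 genes include 0, and Cdkn1a stands at 2.46 and 1.10.

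To see whether kidneys with more Cdkn1a mRNA than their group also had more of the other targets, log2 CPM was correlated over the 36 kidneys after group means were removed. By p adjusted over all 15636 other tested genes none of the 39 was called, by Pearson's r or by Spearman's rho, and neither was any other gene (0%). By unadjusted permutation p, 13 of the 39 (33.3%) were under 0.05 for Pearson's r, 9 of them positive, where 17.2% of all genes were. For Spearman's rho it was 10 of the 39 (25.6%), 6 of them positive, where 12.8% of all genes were. Over the 36 kidneys Zmat3 had the largest correlation of the 39, r = 0.63 and rho = 0.65 (permutation p = 6e-05 and 5e-05, adjusted 0.0688 and 0.0601). Without the 2 kidneys farthest from the median r was 0.58, and within the groups it was 0.41 after PBS and 0.81 after STZ in control mice, and 0.56 and 0.71 in cKOt mice (n = 9 each). Aen had r = 0.53 and rho = 0.58 (permutation p = 0.0014 and 0.00033, adjusted 0.107 and 0.112). Ddb2 ran the other way, with r = −0.56 and rho = −0.59 (permutation p = 0.0012 and 0.00041, adjusted 0.101 and 0.113), and was negative in all 4 groups. Fas, Perp and Ak1 were also negative, with r = −0.38, −0.36 and −0.35 (permutation p = 0.029, 0.044 and 0.047, adjusted 0.234, 0.276 and 0.282). For some genes the sign changed between groups. In control mice r was 0.66 after PBS and −0.82 after STZ for Phlda3, and 0.60 and −0.83 for Bax. Without the 5 libraries named above, r was 0.50 for Zmat3, 0.49 for Aen and −0.45 for Ddb2 over 31 kidneys, and Tnfrsf10b had the largest, r = 0.54 and rho = 0.61 (permutation p = 0.0031 and 0.00077, adjusted 0.341 and 0.251). Over all 36 it had r = 0.47 and rho = 0.54 (permutation p = 0.0067 and 0.0016, adjusted 0.162 and 0.160).

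**Figure D5:**
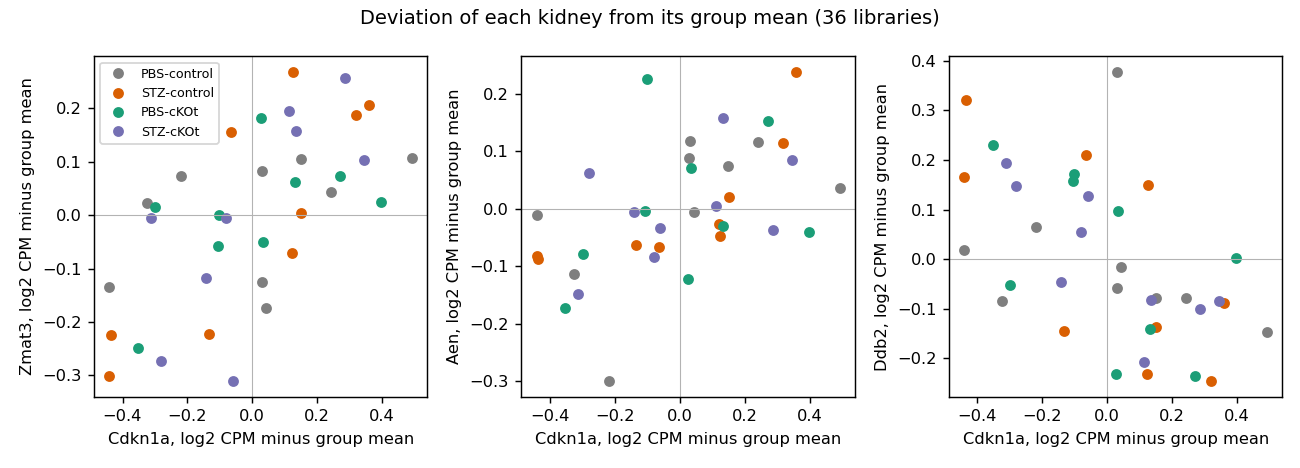
Deviation of each of the 36 kidneys from its group mean in log2 CPM, for Cdkn1a on the horizontal axis and Zmat3, Aen and Ddb2 on the vertical axes, coloured by group. Zmat3 (r = 0.63) and Aen (r = 0.53) rise along the axis and Ddb2 (r = −0.56) falls, and none passed the threshold over all tested genes.

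Other genes of the pathway were counted from lists that were not picked for how they moved here. Results of these data were known when the lists were made, so their counts are a description. Of 37 tested p53 targets outside the 39, 11 were called higher and 1 lower with STZ in control mice (32.4%, where 12.3% of all tested genes were called) and 9 higher and 0 lower in cKOt mice (24.3%, against 11.6%). Their median log2 difference was 0.11 and 0.09. Ephx1, an epoxide hydrolase, rose by 1.10 (SE 0.11) in control and 1.17 (SE 0.11) in cKOt mice (adjusted p = 1.43e-09 and 2.83e-10). Slc19a2, a thiamine transporter, rose by 0.56 (SE 0.065) and 0.76 (SE 0.066) (adjusted p = 1.55e-07 and 1.01e-10). By genotype 17 of the 37 (45.9%, where 23.4% of all tested genes were called) were called in PBS mice, 8 higher and 9 lower, and 10 (27%, against 19.6%) in STZ mice, 5 in each direction. Tnfaip8, a regulator of cell survival, fell by 0.97 after PBS (adjusted p = 3.61e-10) and stood at −0.68 after STZ (adjusted p = 1.04e-06).

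Of 18 tested regulators of p53, 4 (22.2%) were called with STZ in control mice, 1 higher and 3 lower, against 12.3% of all tested genes. In cKOt mice 2 (11.1%) were called, 1 each way, against 11.6%. By genotype 4 (22.2%, against 23.4%) were called in PBS mice, 2 each way, and 1 (5.56%, against 19.6%) in STZ mice, lower. Mdm4, the partner of Mdm2 that inhibits p53, fell by 0.31 in control mice (adjusted p = 0.00827) and by 0.26 in cKOt mice (adjusted p = 0.0333). Prkdc and Trp53bp2 were also called lower in control mice, at −0.30 and −0.18 (adjusted p = 0.00503 and 0.0202), and were not called in cKOt mice. The checkpoint kinase gene Chek1 rose by 0.84 (SE 0.18) in control mice (adjusted p = 0.00195). In cKOt mice it was not called, at 0.37 (adjusted p = 0.186), and the gene called higher was Chek2, at 0.24 (adjusted p = 0.0497). Among 15 genes of alkylation damage, base excision and mismatch repair, 1 (6.67%, against 12.3%) was called with STZ in control mice. In cKOt mice 1 was called higher and 2 lower (20%, against 11.6%). The gene called higher was Mgmt, which removes alkyl groups from guanine, at 4.93, 6.16 and 7.85 CPM after PBS and 9.34, 11.7 and 14.7 after STZ in control mice, and 4.2, 5.68 and 7.02 after PBS and 8.58, 10.6 and 12.9 after STZ in cKOt mice. Its STZ and PBS kidneys did not overlap in either genotype, and it rose by 0.86 (SE 0.10) and 0.93 (SE 0.10) (adjusted p = 2.2e-07 and 2.86e-08). By genotype 5 of the 15 (33.3%, against 23.4%) were called in PBS mice and 2 (13.3%, against 19.6%) in STZ mice, all higher. Polb, the base excision polymerase, rose by 0.52 (SE 0.073) in PBS mice (adjusted p = 5.88e-07) and 0.36 (SE 0.073) in STZ mice (adjusted p = 0.000289).

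Markers of other cells were counted beside all tested genes, of which 12.3% were called with STZ in control and 11.6% in cKOt mice. By genotype 23.4% of all tested genes were called in PBS mice and 19.6% in STZ mice. Counts near these shares, such as 2 of 8 or 2 of 7 by genotype in PBS mice, are not read as movement. Of the 12 markers of proliferating cells 5 were called lower by genotype in STZ mice and 0 in PBS mice, where 1 had an unadjusted p under 0.05. By genotype 1 injured tubule marker was called higher and 2 lower in PBS mice, and 1 lower in STZ mice. Of 7 tested injured tubule markers 4 were called higher with STZ in each genotype, and the summed level of the 8 in control mice ran from 733 to 1004 CPM after PBS and 1009 to 1494 after STZ, and in cKOt mice from 765 to 1334 after PBS and 1044 to 1625 after STZ. Havcr1, the injury marker KIM-1, fell with the knockout by 1.04 in PBS mice and by 1.45 in STZ mice (adjusted p = 0.0025 and 1.01e-05). In PBS mice Vcam1 was also called lower, at −0.50 (adjusted p = 0.00675), and Clu was called higher, at 0.54 (adjusted p = 0.000721). The knockout difference was above 0 in 4 of the 7 in PBS mice and in 2 in STZ mice. The median sum of the 8 was 804.5 CPM in PBS-control and 974.8 in PBS-cKOt, and 1292 in STZ-control and 1327 in STZ-cKOt kidneys. Of 8 macrophage markers 3 were called higher with STZ in control mice and 1 lower in cKOt mice, and 2 were called lower by genotype in PBS mice and 6 in STZ mice, with sums of 204 to 363 CPM in STZ-control and 172 to 212 in STZ-cKOt. Of 10 proximal tubule markers 4 were called lower with STZ in control and 5 in cKOt mice, and 4 and 5 lower by genotype in PBS and STZ mice. Of 7 tested T cell markers 2 were called lower by genotype under each treatment and 0 with STZ, where 2 in control and 4 in cKOt mice had an unadjusted p under 0.05. The part of these cells in the differences of the 39 genes was not tested.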

How the data were processed

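The deposited files hold, per library, raw counts of reads per gene made by the authors. Trimming with cutadapt 1.8, alignment software STAR 2.5.3a, the counter HTSeq 0.9.1 and build GRCm38 are listed, without order, per the submitters' processing notes, and counting options are not given in the sources used here. Each library came from 1 animal. Assigned reads ran from 16.9 to 22.3 M per library (median 20.1), and 30.9% to 42.8% of counted reads mapped to more than 1 place, 3.64% to 6.38% to no gene and 0.582% to 0.738% to more than 1 gene. Such rows stayed out of library sizes. Symbols and positions are from GENCODE M21.

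Genes were filtered with filterByExpr and tested with edgeR 4.0.16 (R 4.3.3) quasi-likelihood F tests on TMM-scaled counts, with 1 mean per group, all 36 libraries and 32 residual degrees of freedom. P was adjusted by the Benjamini and Hochberg method over all 15637 tested genes. Intervals are 95% and come with the SE from the F statistic. Correlations used log2 CPM with a prior count of 2 and two-sided permutation tests with 100000 permutations within groups, and p was adjusted over all other tested genes in place of the 39 relations first planned. The comparison with proliferating cell markers was chosen after seeing the data. The fit was tested on simulated data.

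The 39 genes, the other lists, the comparisons and the alternatives were chosen with earlier results of these data known. Values are given for Trp53, Mdm2, the 12 genes with the largest STZ difference in control mice and each gene called by genotype or interaction. Of the other lists only selected genes are named, not always those with the smallest adjusted p. No gene is named of the macrophage, T cell and proximal tubule lists. Alternatives were DESeq2 1.42.0 (size factors, Wald test), limma 3.58.1 voom with quality weights, no filter, a minimum mean level of 1 CPM, a fit to 2 groups, a replicate block and leaving out libraries.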

Additional observations from a re-analysis of the deposited data

Results flagged for a closer look

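In each group of 9 kidneys the highest and the lowest value of every gene were compared with the nearest of the others, for the 39 genes and Cdkn1a, 160 groups in all. In 22 groups 1 kidney stood apart by Dixon's criterion at the 95% level, where chance gives about 1 in 20 groups, or 8.

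PBS-cKOt 1, which stood apart in earlier work, accounts for 7 of them. It had Trp53inp1 below the rest at 35.2 CPM (nearest 58.1), Fas above the rest at 12.1 CPM (nearest 9.45), Rrm2b below the rest at 27.7 CPM (nearest 42), Polk below the rest at 9.93 CPM (nearest 15.2), Ei24 above the rest at 173 CPM (nearest 156), Ppm1d above the rest at 19.2 CPM (nearest 15.1) and Rps27l above the rest at 142 CPM (nearest 108). In PBS-cKOt 4 the kidney had Apaf1 above the rest at 8.95 CPM (nearest 6.91). PBS-cKOt 5 had Ercc5 below the rest at 21.9 CPM (nearest 25) and Epha2 above the rest at 10.5 CPM (nearest 7.89). For PBS-cKOt 6 it was Eda2r above the rest at 2.3 CPM (nearest 1.62) and Ccng1 above the rest at 357 CPM (nearest 289.6). In PBS-control 3 the kidney had Ddb2 above the rest at 12.6 CPM (nearest 10.2). PBS-control 4 had Mdm2 above the rest at 68.8 CPM (nearest 61.2) and Trp53inp1 above the rest at 110.5 CPM (nearest 77.3). For PBS-control 8 it was Epha2 above the rest at 12.3 CPM (nearest 7.89). In PBS-control 9 the kidney had Btg2 above the rest at 28.2 CPM (nearest 20.8). STZ-cKOt 1 had Rrm2b above the rest at 57.5 CPM (nearest 47). For STZ-cKOt 2 it was Apaf1 below the rest at 6.01 CPM (nearest 7.85). In STZ-control 7 the kidney had Phlda3 above the rest at 15.1 CPM (nearest 11.9) and Rps27l above the rest at 163 CPM (nearest 121). STZ-control 9 had Fas above the rest at 13.8 CPM (nearest 11.7). 

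The STZ effect on Cdkn1a differed between genotypes, with an interaction of −1.37 on the log2 scale (adjusted p = 1.93e-05). Among the 39 genes 0 were called, where only 0.0448% of all tested genes were, so nothing is read from that 0. Cdkn1a was 1 of 7 genes called for the interaction. The log2 STZ difference of Cdkn1a was 3.37 in control and 2.01 in cKOt mice. In PBS mice Cdkn1a was already higher in cKOt kidneys, by 2.46 on the log2 scale.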

How the results depend on the processing

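Over the 9 alternatives no called gene changed direction and each count of called genes stayed within 1.5 times its value. By genotype in PBS mice 6 of 8 calls held under every alternative that gave a value, in STZ mice 2 of 5 (Plk2 and Xpc). The interaction gave 0 of 39 in all 8. The gene called with the proliferating cell markers, Ckap2, made 1 call with all libraries and 0 without the 5. With up to 2 mismatches 4 promoters matched in place of 8. A fit to 2 groups does not apply to the interaction. Depth limits Trp53cor1 most, at 0 to 27 reads per library.

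With the replicate block 9 genes were called by genotype in PBS mice (7 higher, 2 lower), 6 in STZ mice, 0 for the interaction, 25 for STZ in control and 21 in cKOt mice. Libraries with the same number were not shown to be paired: their deviations correlated above 0.1 in 2 of 9 pairs for the PBS groups, 4 for the STZ groups, 2 for the control groups and 0 for the cKOt groups, and the best match had the same number in 2, 2, 2 and 0 of 9.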
